A study of Mus musculus with 5 samples.

Results

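The cyclins and cyclin-dependent kinases described here are the D cyclin genes Ccnd1, Ccnd2 and Ccnd3 with their G1 kinase genes Cdk4 and Cdk6, the E cyclin genes Ccne1 and Ccne2, the A cyclin gene Ccna2 and the B cyclin genes Ccnb1 and Ccnb2. Every probe that the array files list under one of these names (CCND1, CCND2, CCND3, CCNE1, CCNE2, CCNA2, CCNB1, CCNB2, CDK4 and CDK6, in the capitals of the array) was taken, which gave 19 of 45281 probes. Of the 10 genes, 8 had a probe with signal above background and could be compared, through 15 probes, each detected on all 5 arrays. Ccna2 and Ccnb2 were not detected on any array.

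The arrays were Illumina bead arrays hybridised with labelled total RNA of mouse uteri taken at an age of 15 days, from mice of a mixed background of C57BL/6J and 129S5/Brd. Control mice, called wild type in the labels, gave 3 pools (7, 9 and 11), and mice with a conditional knockout of Dicer, written Dicer cKO, gave 2 pools (10 and 12). The knockout was made with Cre expressed from the progesterone receptor locus. Dicer, the enzyme that cuts microRNA precursors, is therefore lost only in cells where that receptor gene is or was active and in their descendants. The sources used here give neither the number of uteri in a pool nor whether controls had Cre or a floxed Dicer allele, and p-values measure only the spread between these pools.

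Cyclins are regulatory subunits whose levels rise and fall through the cell cycle, and each set acts with its own kinase. D cyclins bind Cdk4 or Cdk6 in G1 and start to phosphorylate the retinoblastoma protein, E cyclins with Cdk2 complete that step and open S phase, A2 serves S phase and G2, and B cyclins with Cdk1 drive mitosis. In the young uterus, division of epithelium, stroma and muscle builds the wall of the organ, and D and E cyclins are the usual points at which growth signals reach the cycle.

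Several members are also textbook targets of microRNAs that Dicer makes. The miR-15 and miR-16 family is known to repress D cyclins, Ccne1 and Cdk6, the let-7 family Cdk6, Ccnd2 and the phosphatase gene Cdc25a, and the miR-17 family Ccnd1. Their mature sequences are shown here, from RefSeq with build GRCm38.p6, because their seeds (bases 2 to 8, in capitals) group them into these families. No mature microRNA was measured on these arrays, and target sites in the members were not searched.

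mmu-let-7a-5p: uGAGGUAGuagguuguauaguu

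mmu-miR-15a-5p: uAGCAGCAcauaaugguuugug

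mmu-miR-16-5p: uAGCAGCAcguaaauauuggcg

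mmu-miR-17-5p: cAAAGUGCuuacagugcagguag

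mmu-miR-20a-5p: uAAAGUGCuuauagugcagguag

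The arrays were of similar quality. Between 47.0% and 49.5% of the probes were detected on each. Pairs of pools of 1 group differed by a median of 0.119 to 0.147 log2 units in absolute value over all genes, and pairs across the groups by 0.148 to 0.210. Of 8 genes fixed as marks of uterine identity, 7 were measured, Hoxa10, Hoxa11 and Esr1 among them, while Emx2 was not above background. Of these 7, limma called 1, Pgr, lower in Dicer cKO pools. Wnt7a differed by 0.89 log2 units and was not called (limma adjusted p = 0.0501). Dicer1 itself, in log2 units as for all values here, read 9.15, 9.08 and 9.12 in control pools 7, 9 and 11, against 8.62 and 8.75 in Dicer cKO pools 10 and 12. The groups did not overlap, and the difference was -0.43 ± 0.09 (SE; limma adjusted p = 0.0224). The call was kept in 7 of 14 alternative settings and lost without any 1 of the control pools or Dicer cKO pool 10, with median scaling, with no intensity trend and with probes averaged. A dimmer probe of Dicer1 differed by -0.22 (limma adjusted p = 0.392 over all probes). The files do not say whether either probe lies in the deleted stretch of the gene.

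Of the 5 D and E cyclin genes, which act at the entry to the cycle, 3 rose in Dicer cKO uteri. Ccnd1, Ccne1 and Ccne2 passed the test, each with both Dicer cKO pools above every control pool. The other D cyclins, both G1 kinases and Ccnb1 did not pass. A gene is called here where limma, fitted on all 15733 genes, gave a Benjamini-Hochberg adjusted p under 0.05; this called 6.74% of the genes, with 2.78% higher. Of the 8 members tested, 3 were called, all of them higher. At an unadjusted limma p under 0.05, 6 were higher, against 10.4% of all genes, and 0 were lower. In the other direction limma called no member, against 3.96% of all genes called lower. Without Dicer cKO pool 10, the only member called was Ccnd1. Each difference is the Dicer cKO mean minus the control mean in log2 units, with its standard error from limma.

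**Figure D1:**
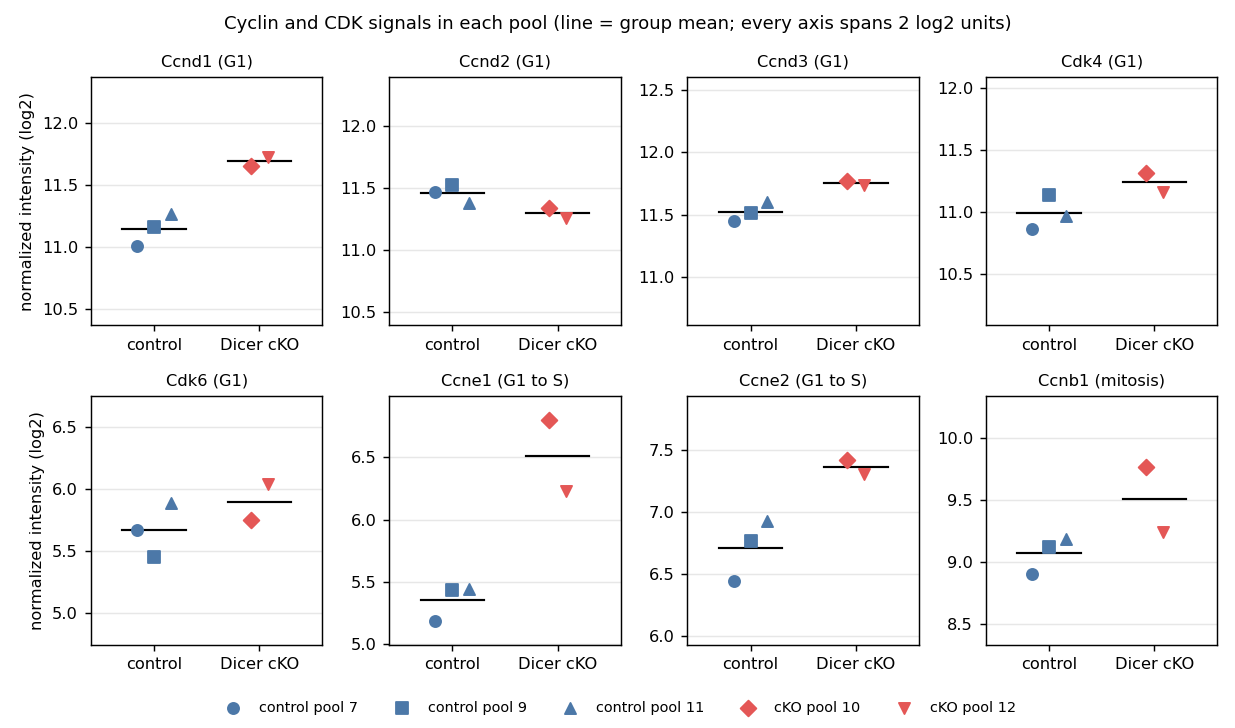
Normalized log2 intensity of the 8 measured cyclin and kinase genes in each pool. The vertical axis of every panel spans the same width in log2 units around its own values; blue symbols are the 3 control pools, red symbols the 2 Dicer cKO pools, and lines the group means. Ccnd1, Ccne1 and Ccne2 stand clearly apart, while Cdk6 overlaps and the Dicer cKO pools of Ccne1 and Ccnb1 lie far from each other.

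Cyclin D1, the subunit through which many growth signals switch on Cdk4 and Cdk6, showed a difference of the same size in both Dicer cKO pools. Its brightest probe read 11.01, 11.16 and 11.26 in control pools 7, 9 and 11, against 11.65 and 11.73 in Dicer cKO pools 10 and 12. Both Dicer cKO pools were above the highest control pool by more than the whole spread of the controls, and the Dicer cKO pools nearly coincided. The control mean was 11.14 ± 0.13 (SD, n = 3), and Ccnd1 rose by 0.54 ± 0.09, a 1.46-fold difference (limma adjusted p = 0.0053). Its dimmer probes, at 8.62 to 8.93 and 10.46 to 10.71 in control pools, rose by 0.69 ± 0.11 and 0.62 ± 0.09 in a fit over 22845 probes (limma adjusted p = 0.0056 and 0.0036). All 3 probes of Ccnd1 were therefore called, where 5.87% of all probes were called and 2.35% were called higher. The call of Ccnd1 was kept in all 14 alternative settings, with adjusted p from 0.0038 to 0.0456 in limma.

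Cyclin D2 did not follow cyclin D1. Its brightest probe read 11.46, 11.52 and 11.38 in control pools 7, 9 and 11, against 11.34 and 11.26 in Dicer cKO pools 10 and 12. The groups did not overlap, with the Dicer cKO pools just below the lowest control pool, but the gap was smaller than the spread among controls. The difference was -0.16 ± 0.08 (limma adjusted p = 0.278), with an unadjusted 95% interval from -0.32 to 0.01. A second probe differed by -0.32 ± 0.09 (limma adjusted p = 0.0710 over all probes, unadjusted p = 0.0051), with control pools from 10.41 to 10.63 and Dicer cKO pools at 10.24 and 10.22. Another, dimmer probe, from 7.52 to 8.20 in controls, differed by 0.18 ± 0.18, and 1 more was not detected. The detected probes of Ccnd2 thus disagreed in direction, and their mean differed by -0.10.

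Cyclin D3, the third G1 cyclin, was among the brightest members and read 11.44, 11.51 and 11.60 in control pools 7, 9 and 11, against 11.77 and 11.74 in Dicer cKO pools 10 and 12. The Dicer cKO pools lay above all controls, by about the width of the control spread. The difference was 0.24 ± 0.07 (95% interval 0.07 to 0.40) and did not pass over all genes (limma adjusted p = 0.0949). A dimmer probe differed by 0.18 ± 0.11, and another was detected on 1 array and left out.

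Cdk4, the G1 kinase with the brighter signal, read 10.86, 11.14 and 10.97 in control pools 7, 9 and 11, against 11.31 and 11.16 in Dicer cKO pools 10 and 12. Dicer cKO pool 12 was hardly above control pool 9. The difference of 0.25 ± 0.10 did not pass (limma adjusted p = 0.170; 95% interval 0.04 to 0.46). A dimmer probe of Cdk4, at 7.58 to 7.95 in control and 8.35 and 8.09 in Dicer cKO pools, differed by 0.46 ± 0.14 (limma adjusted p = 0.0843 over all probes).

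Cdk6, the other partner of the D cyclins, was dim and its groups overlapped. It read 5.67, 5.46 and 5.89 in control pools 7, 9 and 11, against 5.76 and 6.04 in Dicer cKO pools 10 and 12, with pool 10 below control pool 11. The difference was 0.23 ± 0.17 (limma adjusted p = 0.496), and the 95% interval from -0.14 to 0.59 includes both no difference and one as large as that of Ccnd1. It ran from 0.08 without Dicer cKO pool 12 to 0.37 without Dicer cKO pool 10.

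The E cyclins gave the largest difference of the set. Ccne1, whose protein activates Cdk2 at the start of S phase, read 5.19, 5.43 and 5.44 in control pools 7, 9 and 11, against 6.80 and 6.23 in Dicer cKO pools 10 and 12. Both Dicer cKO pools were far above the controls, and pool 10 was far above pool 12. In the deposited intensities, before any correction, the control pools stood at 70.8, 75.8 and 70.5 and the Dicer cKO pools at 131.9 and 107.1. The control mean was 5.35 ± 0.14 (SD, n = 3), and Ccne1 rose by 1.16 ± 0.18, or 2.24-fold (limma adjusted p = 0.0050), more than 99.7% of all genes did. Its single probe was dim, and the size depends on the background step: with an offset of 50 the difference was 0.75, still called (limma adjusted p = 0.0055). Without Dicer cKO pool 10 it was 0.88 and not called (limma adjusted p = 0.0635).

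Ccne2, the second E cyclin, read 6.44, 6.77 and 6.93 in control pools 7, 9 and 11, against 7.42 and 7.31 in Dicer cKO pools 10 and 12. The groups stood apart, though control pool 7 lay well below the other controls. Ccne2 rose by 0.65 ± 0.16, a 1.57-fold difference, close to the threshold (limma adjusted p = 0.037). The call was lost when control pool 7 or 9 or Dicer cKO pool 10 or 12 was left out, with adjusted p from 0.0785 to 0.264 in limma, while the difference stayed between 0.52 and 0.76 when a pool was left out. Ccne2, like Ccne1, was read by 1 probe.

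**Figure D2:**
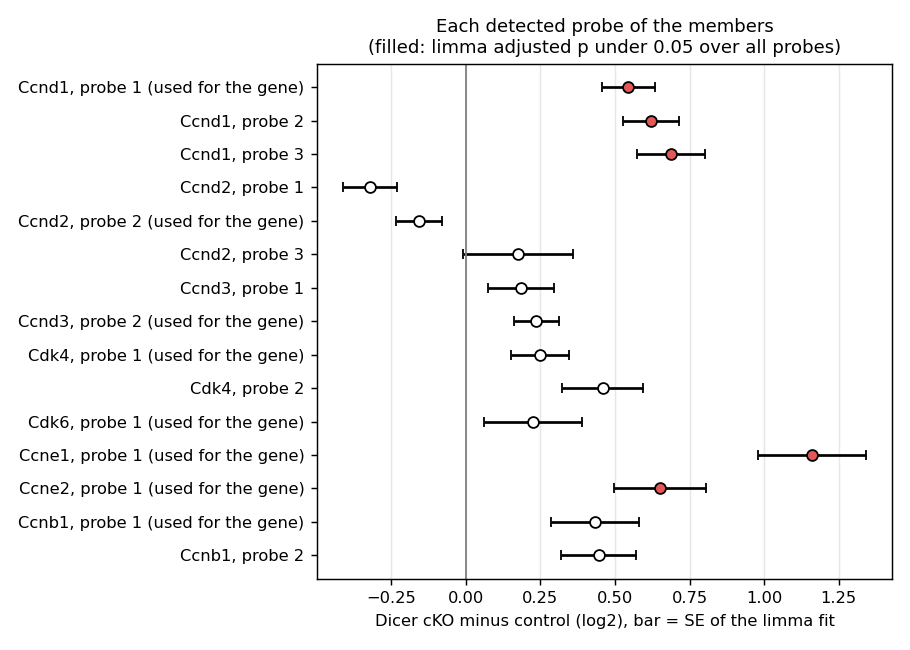
Difference between Dicer cKO and control for each of the 15 detected probes of the members, with the standard error of the limma fit over all probes as bars. Filled points passed at an adjusted p under 0.05; all 3 probes of Ccnd1 and the probes of Ccne1 and Ccne2 did, and the probes of Ccnd2 lie on both sides of 0.

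Of the cyclins that act later in the cycle, only Ccnb1 could be compared. Ccnb1, the B cyclin that takes cells into mitosis with Cdk1, read 8.91, 9.13 and 9.18 in control pools 7, 9 and 11, against 9.77 and 9.25 in Dicer cKO pools 10 and 12. Pool 10 was well above every control, whereas pool 12 lay next to control pool 11. The difference was 0.43 ± 0.15 and did not pass (limma adjusted p = 0.129; 95% interval 0.10 to 0.77). A second probe gave 8.42, 8.58 and 8.67 in control pools, against 9.18 and 8.83 in Dicer cKO pools, a difference of 0.45 ± 0.13 (limma adjusted p = 0.0709 over all probes). The first probe differed by 0.18 without Dicer cKO pool 10 (limma adjusted p = 0.651) and by 0.69 without pool 12, where it was called (limma adjusted p = 0.0229).

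Ccna2, the cyclin of S phase and G2, had 1 probe, with deposited intensities from 43.4 to 47.5 in control pools and of 48.2 and 39.8 in Dicer cKO pools 10 and 12. The probe of Ccnb2, the second B cyclin, stood between 35.8 and 37.6 in control pools and at 36.4 and 33.3 in Dicer cKO pools. Neither probe was above background on any array, while Cdk1 and Top2a, which dividing cells express, were bright. No fold was computed for either gene.

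By phase, the differences ran from -0.16 to 0.54 over 5 G1 members and were 0.65 and 1.16 for the E cyclins and 0.43 for Ccnb1. Differences between phases were not tested. The groups did not overlap, with Dicer cKO higher, for 6 of the 8 measured members and 11 of their 15 probes, against 19.9% of all genes and 19.6% of all probes. The median difference of the 8 was 0.34, and that of all genes was 0.01.

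The Dicer cKO pools deviated differently from the control mean for some members. Ccnd1 deviated by 0.51 in pool 10 and 0.58 in pool 12, and Ccnd3 by 0.25 and 0.22, so both pools were alike there. Ccne1 deviated by 1.45 and 0.87 and Ccnb1 by 0.69 and 0.17, larger in pool 10, while for Cdk6 pool 10 deviated less, at 0.08 against 0.37. With 2 pools in the group, this unequal deviation was not tested.

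**Figure D3:**
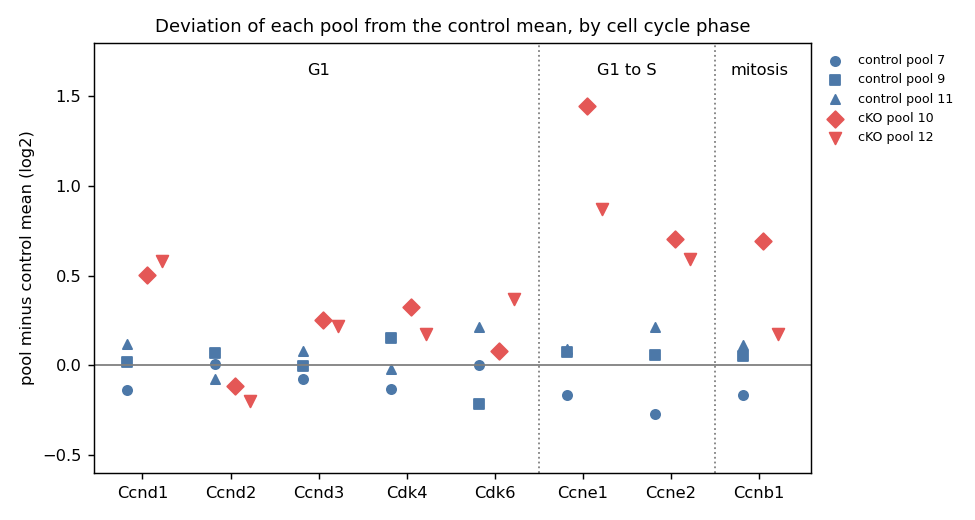
Deviation of each pool from the mean of the control pools for each measured member, in log2 units, ordered by cell cycle phase and divided by dotted lines. Blue symbols are control pools and red symbols Dicer cKO pools; Ccnd1 is raised about equally in both Dicer cKO pools, while for Ccne1 and Ccnb1 pool 10 lies above pool 12.

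Markers of cell types differed too, and more of them were called lower than higher. Over all genes, limma also called more lower than higher, at 3.96% against 2.78%. In bulk tissue, fewer cells of a type and less RNA per cell cannot be told apart. The summed normalized intensity of 11 measured epithelial markers was 10823 to 13666 in control pools and 7696 and 7761 in Dicer cKO pools, with 1 marker called higher and 5 lower; Epcam was not above background. For 10 stromal markers the sum was 46373 to 48263 in control pools and 38372 and 43393 in Dicer cKO pools, with 4 called lower. For 4 measured adipocyte markers it was 4823 to 6637 against 3593 and 4486, with 2 called lower, Fabp4 and Plin1 not being above background. The sums of 8 smooth muscle markers overlapped, at 43259 to 45421 and 45217 and 46908. Of 6 measured myeloid markers, Cd68 and Lyz2 rose and Cd14 fell, and the summed intensity was 2088 to 2449 in control pools against 1842 and 2320. Of 4 markers of oviduct and ciliated cells, the oviduct gene Ovgp1 fell by 2.58. Its control pools lay far apart, with pool 11 at 6.71, pool 7 at 7.88 and pool 9 higher still. The other markers of this list, Foxj1, Tubb4b and Rsph1, differed by 0.12, 0.17 and 0.06 and were not called. Leaving out Dicer cKO pool 10 ended the calls of Ovgp1 (limma adjusted p = 0.06), of the adipocyte genes Adipoq and Cfd (limma adjusted p = 0.233 and 0.34), of the stromal genes Vim and Tcf21 and of the epithelial gene Krt7. Those of Cfd and Krt7 were kept in 7 of 14 alternatives and that of Tcf21 in 6. The epithelial genes Krt18, Cldn3 and Rab25 and the stromal genes Thy1 and Twist2, all lower, kept their calls in 14 of 14. So did the myeloid genes Cd14, Cd68 and Lyz2. The lower epithelial and stromal calls therefore did not all depend on Dicer cKO pool 10. Limma called 0 of 20 measured endothelial, lymphoid, erythroid, ovarian and mesothelial markers, with 1, an endothelial one, at an unadjusted p under 0.05. The part of these cell types in the cyclin differences was not tested.

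The promoters of Ccne1 and Ccnb1 are shown because these genes had the largest difference and the largest gap between Dicer cKO pools apart from it, and because cell cycle promoters are known for E2F sites, CCAAT boxes and the CHR element. Of the 10 members, 6 matched a RefSeq promoter (build GRCm38.p6) by symbol. The window is the 250 bases before the start, in the direction of the gene. Capitals mark CCAAT and the GC box GGGCGG on either strand. The exact letters TTTGGCGC and TTTCCCGC for E2F and TTTGAA for the CHR element were searched too and are not in these 2 windows. Other variants of these elements were not searched, so the windows may hold them.

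Ccne1, chr7:38107491-38107740, minus strand: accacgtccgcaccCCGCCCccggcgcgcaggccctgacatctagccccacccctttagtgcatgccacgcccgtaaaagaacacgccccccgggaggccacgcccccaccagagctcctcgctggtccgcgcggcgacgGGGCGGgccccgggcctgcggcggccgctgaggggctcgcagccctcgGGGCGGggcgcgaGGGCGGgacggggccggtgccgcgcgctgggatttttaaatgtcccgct

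Ccnb1, chr13:100786487-100786736, minus strand: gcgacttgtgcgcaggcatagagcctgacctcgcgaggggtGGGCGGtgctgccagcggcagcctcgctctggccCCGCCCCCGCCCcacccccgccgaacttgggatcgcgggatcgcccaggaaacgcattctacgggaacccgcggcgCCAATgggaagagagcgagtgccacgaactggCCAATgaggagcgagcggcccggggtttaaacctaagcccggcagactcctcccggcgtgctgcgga

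Ccne1 holds 4 GC boxes and no CCAAT, and Ccnb1 holds 2 CCAAT boxes and 3 GC boxes, with no overlap between motifs. Over 32851 promoter windows of the same length, GGGCGG is in 32.7%, CCAAT in 33.8%, TTTGAA in 16% and either E2F motif in 1.3%. A match is a description of the letters and not a binding site.

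Around the members, most genes of the cell cycle engine did not pass, and those that did were mostly higher. Over all genes, limma called 2.78% higher and 3.96% lower, the shares to set beside each count below. Among 10 other measured cell cycle cyclins and kinases, Cdk1, the mitotic kinase, rose by 0.48 ± 0.12 (limma adjusted p = 0.0494), a call kept in 5 of 14 alternatives and lost without any 1 of the control pools or Dicer cKO pool 10. Cdk1 read 10.09, 10.37 and 10.42 in control pools, against 10.94 and 10.61 in Dicer cKO pools, so pool 10 was again the higher of the pair. A dimmer probe of Cdk1 differed by 0.16 (limma adjusted p = 0.606 over all probes), and another was not detected. Ccnb3, a B-type cyclin known best from meiosis, fell by 1.25 ± 0.18 (limma adjusted p = 0.0036), from 6.43, 6.04 and 5.92 to 4.71 and 5.06, where it was detected on 1 of the 2 Dicer cKO arrays. Leaving out Dicer cKO pool 10 ended its call (limma adjusted p = 0.0616), and a second probe was not detected. Cdk2, the partner of the E cyclins, differed by 0.17 ± 0.08 and was not called.

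Of the 7 CDK inhibitor genes, limma called 2 higher and none lower, against 2.78% and 3.96% of all genes. Cdkn1a, which encodes the inhibitor p21, read 7.37, 7.18 and 7.05 in control pools, against 9.42 and 9.37 in Dicer cKO pools and rose by 2.20 ± 0.12 (limma adjusted p = 1.2e-05), a call kept in 14 of 14 alternatives. Cdkn2b, an inhibitor of Cdk4 and Cdk6, rose by 0.84 ± 0.17 (limma adjusted p = 0.0173), from 5.47, 5.50 and 5.40 to 6.03 and 6.57; its call was lost with no detection filter and without control pool 7 or Dicer cKO pool 12. These inhibitors and the E cyclins were all called higher in Dicer cKO, which with 2 groups shows no link between them. Cdkn2b was higher in Dicer cKO pool 12 than in pool 10, while Ccne1 and Ccne2 were higher in pool 10. Cdkn1b, whose protein p27 restrains cyclin E with Cdk2, differed by 0.10 ± 0.17 and was not called.

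None of the 10 measured RB and E2F genes was called by limma, against 6.74% of all genes. At an unadjusted limma p under 0.05, 5 were higher, against 10.4% of all genes. E2f3 differed by 0.53 ± 0.15 (limma adjusted p = 0.0713) and E2f1 by 0.44 ± 0.15 (limma adjusted p = 0.133); the call of E2f1 appeared without Dicer cKO pool 12 (limma adjusted p = 0.0324). E2f1 in pool 12, at 8.92, was level with control pool 11, at 8.93. Rb1, the retinoblastoma gene itself, differed by 0.06 ± 0.18.

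Among 5 measured genes for switches of kinase phosphorylation, Cdc25a, the phosphatase that frees Cdk2, rose by 0.59 ± 0.12 (limma adjusted p = 0.0141), from 7.80, 8.02 and 8.04 to 8.60 and 8.48; a dimmer probe gave 0.22 and did not pass. The call of Cdc25a ended when Dicer cKO pool 10 was left out (limma adjusted p = 0.146) and when its probes were averaged. Of 11 measured genes for cyclin destruction, Skp2, which marks the inhibitor p27 for breakdown, was the one called. It read 8.46, 8.39 and 8.41 in control pools, against 9.42 and 9.08 in Dicer cKO pools. Skp2 rose by 0.83 ± 0.12 (limma adjusted p = 0.0025), and the call was kept in 14 of 14 alternatives. Of its dimmer probes, 2 rose by 0.87 and 0.65 and 1 gave 0.37 and did not pass. Fbxw7, which targets cyclin E for destruction, differed by 0.04 ± 0.11.

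Of 18 measured readouts of S phase and mitosis, limma called 5 higher and none lower, and 13 did not pass. Of all genes, 2.78% were called higher. All 18 differences were above 0, and 16 had an unadjusted limma p under 0.05, against 10.4% of all genes that were higher so. The groups did not overlap, with Dicer cKO higher, for 11 of the 18, against 19.9% of all genes. The helicase gene Mcm5 rose by 0.69 ± 0.16, the mitotic kinase gene Aurka by 0.67 ± 0.13, Mcm3 by 0.61 ± 0.15, the topoisomerase gene Top2a by 0.53 ± 0.14 and the thymidine kinase gene Tk1 by 0.53 ± 0.13, with limma adjusted p from 0.016 to 0.04998. The calls of Top2a and Mcm3 were kept in 3 and 7 of 14 alternatives. Dimmer probes of Top2a differed by 0.53 and 0.255 and one of Tk1 by 0.54, and none of them was called. A dimmer probe of Mcm3 rose by 0.70 (limma adjusted p = 0.0132 over all probes). Mki67, the common mark of cycling cells, read 9.55, 9.54 and 9.76 in control pools, against 10.27 and 9.74 in Dicer cKO pools, and was not called (0.38 ± 0.15). The median deviation of the list from the control mean was 0.69 in Dicer cKO pool 10 and 0.27 in pool 12. In control pools 7, 9 and 11 it was -0.19, 0.01 and 0.18. The pools had the same order for Ccnd3, Ccne1, Ccne2 and Ccnb1, and not for the other measured members. The count called was 0 without Dicer cKO pool 10 or control pool 7, 2 without control pool 9, 12 without Dicer cKO pool 12 and from 1 to 5 in the alternatives that kept all pools. The median difference of the list was 0.47.

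**Figure D4:**
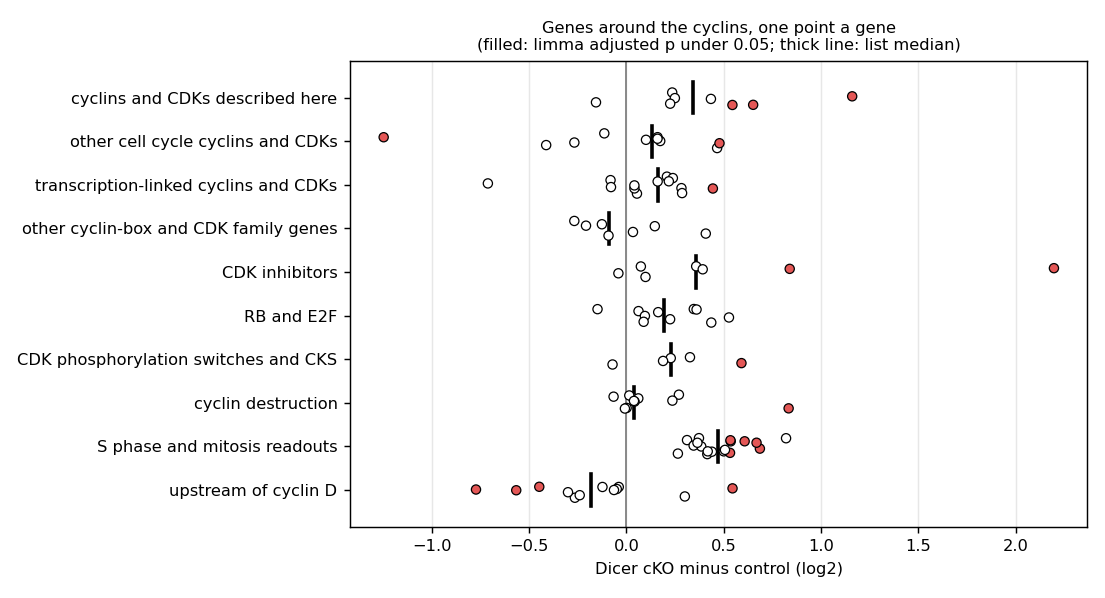
Difference between Dicer cKO and control for each measured gene of the cyclins and kinases described here and of 9 lists around them, on the log2 scale, with points moved up or down only to separate them. Filled points passed limma at an adjusted p under 0.05 and thick lines are medians; the readouts of S phase and mitosis all lie above 0, and Cdkn1a, at 2.20, is the point farthest to the right.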

How the data were processed

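The authors deposited a mean bead intensity per probe for each array, neither background-subtracted nor normalized between arrays as judged from the values, with the number of beads and a detection score from 0 to 1, which was subtracted from 1 to give a detection p. BeadStudio (version not given) is named per the submitters' processing notes. A deposited table of the series with normalized intensity has row identifiers that match none of the probe numbers, so it gave only a count. The labels name a human array, while the gene names are those of mouse.

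In R 4.3.3 with limma 3.58.1, normexp correction from the detection p values (offset 16), quantile normalization and log2 were applied. Probes detected at p under 0.05 on at least 2 of 5 arrays were kept (22845), names were updated through RefSeq (GRCm38.p6; 22864 probes current, 11917 by synonym, 10473 kept, 27 turned into dates), and the brightest probe stood for a gene. Groups were compared with lmFit and eBayes with an intensity trend; the script was tested on simulated data. An exact permutation of 5 pools cannot go below 0.1. Named are all members and, of each list, up to 4 called genes by size, or 2 by moderated t; others, such as Tk1, Cdk2, Cdkn1b, Rb1, Fbxw7 and Mki67, were chosen after their values were seen. Members and lists were chosen with earlier results of these data known. No slide or scan batch was found.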

Additional observations from a re-analysis of the deposited data

How the results depend on the processing

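No paired analysis was possible because the groups share no pool number. Of 14 alternatives, Ccnd1 kept its call in 14, Ccne1 in 13 and Ccne2 in 8; no member changed direction. With a pool left out, differences ran from 0.88 to 1.45 for Ccne1, from 0.52 to 0.76 for Ccne2 and from 0.18 to 0.69 for Ccnb1, members called higher from 1 to 3, member probes called from 1 to 7, genes called from 275 to 956 (1061 with all pools) and list genes called from 3 to 25 (16 with all pools). Ccne2, at 0.65, was not called with no detection filter (limma adjusted p = 0.0678) or with no intensity trend (limma adjusted p = 0.0550), and these settings called 10 and 9 list genes; the cause was not tested. The authors' table, by row, gave 1295 calls among 45281 rows. Ccne1 and Cdk6 were dim, at 5.35 and 5.67 in controls against lowest detected signals of 4.93 to 5.03, and Cdk6 differed by 0.14 with an offset of 50. Leaving out a Dicer cKO pool assumes that the lone pool varies like the controls.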

Other observations

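Of 12 measured genes that feed into cyclin D, limma called 1 higher and 3 lower, against 2.78% and 3.96% of all genes. The median difference of the list was -0.18, with 2 differences above 0 and 6 genes at an unadjusted limma p under 0.05. Their part in the difference of Ccnd1 was not tested. Igf1, a growth factor of the uterine stroma, rose by 0.55 ± 0.09 (limma adjusted p = 0.0050), from 9.42, 9.49 and 9.48 in control pools 7, 9 and 11 to 10.08 and 9.94 in Dicer cKO pools 10 and 12. Pgr, the receptor gene from which Cre was expressed, fell by 0.77 ± 0.14 (limma adjusted p = 0.0090), Stat5a by 0.57 ± 0.13 (limma adjusted p = 0.0287) and Egfr by 0.45 ± 0.10 (limma adjusted p = 0.0319). Whether controls had Cre is not given, so for Pgr the Cre allele and the loss of Dicer cannot be told apart. A dimmer probe of Stat5a differed by 0.22 and was not called. The dimmer probes of Egfr differed by -0.54 to -0.31, and none of them was called. The calls of Igf1 and Pgr were lost without Dicer cKO pool 10, and those of Stat5a and Egfr were kept in 7 and 8 of 14 alternatives; leaving out any pool ended that of Stat5a, and any but control pool 9 that of Egfr. Myc, a known inducer of Ccnd2 and Cdk4, differed by -0.26 ± 0.11 and was not called.

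Cyclins and kinases that act in transcription showed 1 call among 13 measured genes, which is near the share of 6.74% called over all genes. Cdk8, the Mediator kinase, rose by 0.44 ± 0.10 (limma adjusted p = 0.0240), a call kept in 8 of 14 alternatives and lost without any 1 of the control pools or Dicer cKO pool 10, while its partner Ccnc differed by 0.16 ± 0.11. Ccnl2, a cyclin of RNA splicing, differed by -0.71 ± 0.19 (limma adjusted p = 0.0541). None of 7 other genes of the cyclin and kinase families was called by limma, with 1 at an unadjusted p under 0.05; Ccno differed by 0.41 ± 0.18 and Ccng2 by -0.21 ± 0.12.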
